A study of Mus musculus with 40 samples.

Results

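Castrated male mice that received estradiol were compared with castrated male mice that received placebo, on the RNA of their livers. The labels place 10 of the 40 livers of the series in these groups, animals 41, 43, 44, 45 and 46 with estradiol and animals 24 to 28 with placebo, and all 10 were used. Every animal was of the inbred strain C57BL/6J and ate chow with 4% fat. The castrated males lost their testes at 8 weeks of age, received a subcutaneous pellet at 12 weeks and were killed at 14 weeks after a 12 h fast. The estradiol pellet held 0.5 mg and was stated to yield 300 pg/ml in plasma over a release time of 21 days, and the control males carried a placebo pellet. Both groups therefore lacked testicular hormones, and the pellet was the only labelled difference between them.

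Other animals served as points of reference and none of them was among the 10. They were 5 castrated males with 5 mg of dihydrotestosterone (DHT, an androgen that cannot be converted to estrogen; stated plasma yield 1 to 2 ng/ml), 5 ovariectomized females with the same estradiol pellet, 5 ovariectomized females with placebo, 5 ovariectomized females with the DHT pellet (used for the estimate of spread and for the sex pattern plot), 5 intact females and 5 intact males. All had the strain, diet, age at death and fast given above, and the gonadectomized ones the same ages at surgery and pellet. For intact animals the labels name neither surgery nor a pellet.

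Estradiol reaches liver cells through the blood and acts there mainly through the estrogen receptor alpha, encoded by Esr1, a nuclear receptor that binds DNA as a dimer. Many liver genes of the mouse differ between the sexes, above all cytochromes P450, sulfotransferases and other enzymes of steroid and drug metabolism. This sex pattern depends largely on the rhythm of growth hormone release from the pituitary, pulsatile in males and more even in females, and gonadal hormones shape that rhythm.

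Each liver was hybridised to 1 array of 23574 probes against a common pool made from equal portions of RNA of the samples, and every value below is the log2 ratio of a liver to that pool. A value of 0 equals the pool, and levels of different genes cannot be set against each other. The median residual SD of a probe was 0.146 log2 units, and the number of arrays limited the precision. The Y-linked genes Eif2s3y and Kdm5d were higher in each of the 20 males than in each of the 20 females. Pairwise correlations over all probes ran from -0.18 to 0.48 among the 5 estradiol animals and from -0.01 to 0.68 among the 5 placebo animals. A liver clock index was the mean of 5 activator-arm genes minus that of 9 repressor-arm genes. It was -0.54, -0.17, 0.05, -0.23 and -0.52 in estradiol animals 41, 43, 44, 45 and 46. In placebo animals 24 to 28 it was 0.50, 0.05, -0.14, 0.13 and -0.47. The groups overlapped, with most estradiol animals below most placebo animals. Hepatocyte markers did not pass in either direction for estradiol against placebo (0 of 7, against 1.44% of all genes, median difference -0.02). In bulk tissue, fewer cells of a type and less RNA per cell cannot be told apart.

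Estradiol raised a serpin pseudogene, the oxysterol hydroxylase Cyp7b1 and the growth factor receptor Egfr, and lowered the phosphodiesterase gene Pde6c, glutathione transferases and the glycerol phosphate dehydrogenase Gpd2. Of the 23574 probes, 278 (1.18%) passed a Benjamini-Hochberg adjusted p under 0.05 in limma, 174 higher (0.738%) and 104 lower (0.441%). Of 10842 named genes, each represented by 1 probe, 156 passed (1.44%), with 98 higher (0.904%) and 58 lower (0.535%). Only 19 of these genes changed by at least 2-fold, and the median difference over all genes was -0.02. The 5 and 5 animals did not overlap for 343 genes (3.16%), and 114 genes (1.05%) both passed and did not overlap. Over all probes these shares were 2.87% and 0.874%. The count of probes rested in part on single animals. It was 84 without estradiol animal 46, 179 without estradiol animal 45, 69 without placebo animal 24, 144 without placebo animal 25 and 165 without placebo animal 26. A fit to these 10 arrays alone, without the spread of the other 6 groups, called 37 probes.

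The 12 genes with the largest rise and the 12 with the largest fall, among those that passed without overlap, are described next. Egfr, Sult5a1, Serpina3f, Ngef, Pde6c, Gpd2, Crip2 and Rbmx passed without each animal in turn, while the other 16 missed the threshold without at least 1. In the fit to the 10 arrays alone, Egfr, Sult5a1, Serpina3f, Ngef, Pde6c, Sh2b3, Crip2, Gsta4 and Epha2 passed. With each array scaled to one median absolute deviation, Serpina4-ps1, Cyp7b1, Mmd2, Dntt, Dct, Treh, Upp2, Hsd3b2, Sh2b3, Gsta4 and Anp32e missed the threshold (adjusted p from 0.0503 to 0.0912), with differences such as 2.91 for Serpina4-ps1 and 2.68 for Cyp7b1. Among the genes described further on, Fkbp5, Acaca, Klkb1, Alas1, Tek, Spon1, Corin and Serpina7 missed it too (adjusted p from 0.07 to 0.131).

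Serpina4-ps1, a pseudogene of the serpin family of protease inhibitors, showed the largest rise. It lay at -1.96, 0.56, -0.12, -1.26 and 1.49 in the 5 estradiol animals (41, 43, 44, 45 and 46, the order used for all values below), at 1.91, 0.95, -2.39, 1.87 and -1.50 in DHT animals 59 to 63, and at -3.21, -3.13, -3.37, -3.19 and -3.67 in placebo animals 24 to 28. Placebo livers were tightly grouped and below every estradiol liver, whereas the estradiol livers were spread widely. The difference of estradiol minus placebo was 3.06 ± 0.69 (SE), or 8.32-fold (adjusted p = 0.0187). It missed the threshold without animal 43, 46 or 24, with an adjusted p of up to 0.0942.

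Cyp7b1, the hydroxylase of the alternative bile acid pathway that also clears certain steroids, lay at -1.50, 1.72, 1.65, -1.34 and 0.92 under estradiol, at 0.77, -0.42, -2.33, 0.10 and -0.43 under DHT and at -3.07, -2.50, -2.86, -1.92 and -2.44 under placebo. Animals 43, 44 and 46 were the highest, and animals 41 and 45 lay just above the placebo range. The difference was 2.85 ± 0.68 (7.20-fold, adjusted p = 0.0289). It was not called without animal 43, 44, 46, 24, 25 or 26 (adjusted p up to 0.0954). The level in intact males was between -0.66 and 2.02 and that in intact females between -3.19 and -2.72, so 3 of the 5 estradiol animals reached the range of intact males and animals 41 and 45 did not.

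Egfr, the receptor for epidermal growth factor, changed more evenly. Its ratios were -0.36, 0.22, -0.09, 0.18 and 0.84 under estradiol, 0.84, 0.53, -0.69, 0.90 and 0.65 under DHT and -1.34, -1.56, -1.67, -1.38 and -1.82 under placebo. All 5 estradiol livers lay well above all 5 placebo livers. The difference was 1.71 ± 0.29 (3.28-fold, adjusted p = 0.00269), and the largest adjusted p without any 1 animal was 0.0177. Intact females ranged from -1.19 to -0.62 and intact males from 0.49 to 1.2, so all 5 estradiol livers lay above intact females and animal 46 alone reached the range of intact males.

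**Figure D1:**
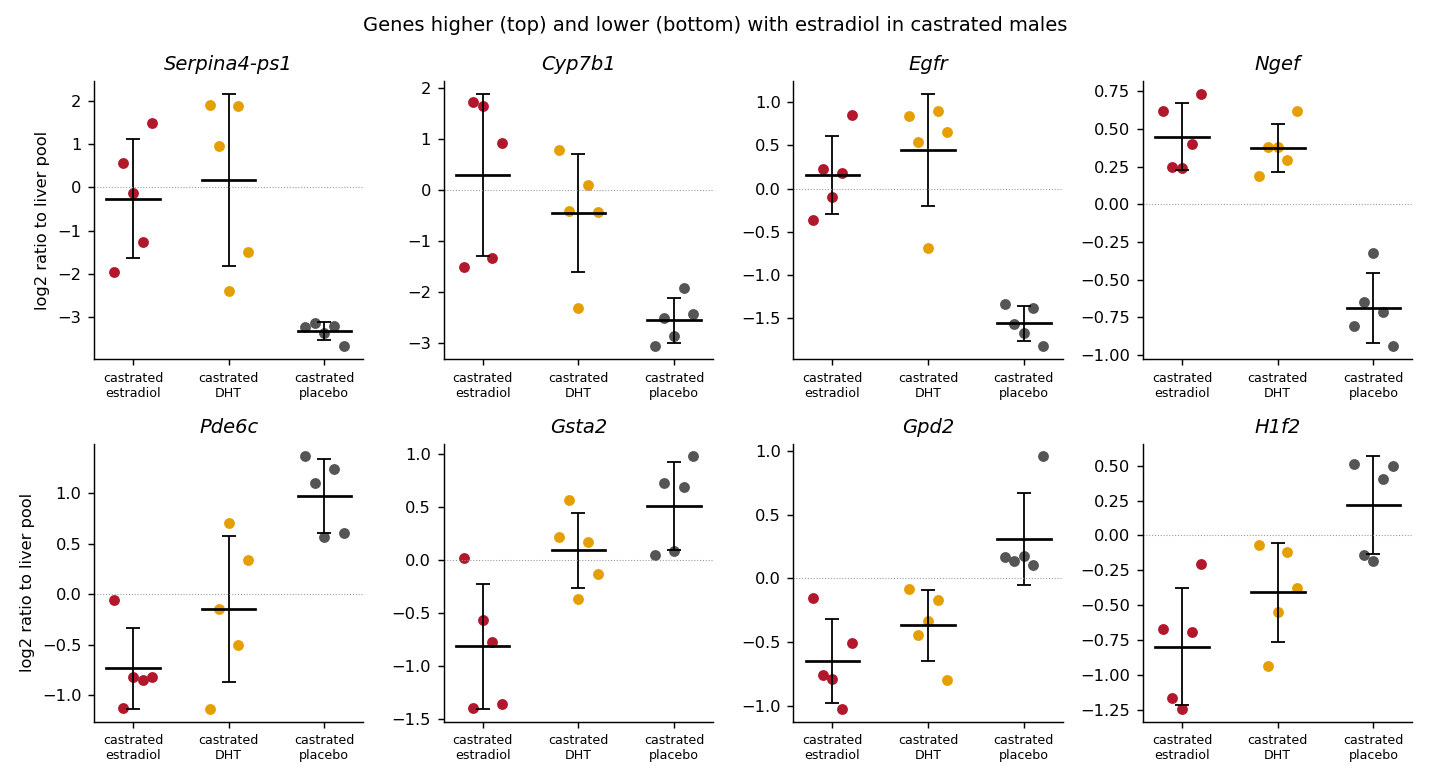
Log2 ratio to the liver pool (vertical axis) of 4 genes higher and 4 genes lower with estradiol, 1 point per animal, in castrated males with estradiol, DHT or placebo; the bar is the mean and the whiskers are 1 SD (n = 5). Estradiol and placebo points do not overlap in any panel, and the spread of the estradiol points is widest for Serpina4-ps1 and Cyp7b1.

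Sult5a1, a cytosolic sulfotransferase, and Ngef, a guanine nucleotide exchange factor first known from brain, had the smallest adjusted p among the 12 raised genes described here. Sult5a1 stood at -0.07, 0.59, 0.43, 0.36 and 0.90 under estradiol, against -0.68, -0.65, -0.46, -0.97 and -1.10 under placebo, a difference of 1.21 ± 0.19 (2.32-fold, adjusted p = 0.00238). Ngef stood at 0.62, 0.25, 0.24, 0.40 and 0.74 under estradiol, against -0.81, -0.65, -0.32, -0.72 and -0.94 under placebo, a difference of 1.14 ± 0.19 (2.20-fold, adjusted p = 0.00238). Neither overlapped between groups, and neither call depended on 1 animal.

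Treh, which encodes the enzyme that splits the sugar trehalose, lay at -0.68, 0.53, 0.52, -0.42 and 0.11 under estradiol and at -1.01, -1.33, -1.58, -1.16 and -1.52 under placebo. The difference was 1.33 ± 0.31 (2.52-fold, adjusted p = 0.0213), with animals 41 and 45 nearest to placebo. Without animal 43, 44, 46 or 26 it missed the threshold (adjusted p up to 0.066).

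The promoter windows of Ngef and Treh run from 250 bases before to 50 bases after the start of the gene. They are printed because both genes rose and both windows hold AGGTCA or its reverse complement TGACCT, shown in capitals. This half-site is bound by the estrogen receptor and other nuclear receptors. The 2 windows were picked for holding it, and the window of Mmd2, which also rose, has 0 matches. The printed windows come from RefSeq on build GRCm38.p6, Ngef at chr1:87573821-87574120 on the minus strand and Treh at chr9:44672983-44673282 on the plus strand.
Ngef: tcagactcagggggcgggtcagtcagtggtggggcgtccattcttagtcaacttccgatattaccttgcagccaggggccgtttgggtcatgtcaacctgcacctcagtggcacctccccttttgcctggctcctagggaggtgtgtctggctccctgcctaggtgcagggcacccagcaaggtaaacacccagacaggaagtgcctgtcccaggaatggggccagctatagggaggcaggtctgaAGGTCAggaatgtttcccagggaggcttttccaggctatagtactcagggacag
Treh: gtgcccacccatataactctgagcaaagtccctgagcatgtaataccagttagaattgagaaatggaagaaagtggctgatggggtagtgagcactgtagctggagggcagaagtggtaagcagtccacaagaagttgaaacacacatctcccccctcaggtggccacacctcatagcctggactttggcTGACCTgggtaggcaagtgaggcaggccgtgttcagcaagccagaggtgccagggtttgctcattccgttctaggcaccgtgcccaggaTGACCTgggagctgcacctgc
The site occurs once in the Ngef window and 2 times in the Treh window. Over 10863 windows of the tested genes, 13.6% hold AGGTCA or TGACCT, and among 24 windows of 20 of the 24 named genes 6 do, those of Dct, Epha2, Ngef, Slc25a47, Treh and Upp2. The full palindrome, GGTCA and TGACC with any 3 bases between them, is in 0.0276% of all windows and in 0 of the 24. TTCNNNGAA, the motif of STAT5, a factor that growth hormone activates, is in 7.04% of all windows and in 2 of the 24, both of Serpina3f. Both palindromes read the same on either strand, and these matches describe letters in the window and are not binding sites.

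Mmd2, a membrane protein of the progestin and adipoQ receptor family, and Dntt, the template-free DNA polymerase of early lymphocytes, shared a steep order among the estradiol animals. Mmd2 lay at -0.71, 1.64, 2.21, -0.40 and 0.24 under estradiol, at -1.79, -1.64, -1.77, -2.21 and -1.68 under DHT and at -1.41, -1.08, -1.09, -1.65 and -1.09 under placebo. Dntt lay at -0.83, 1.51, 1.72, -0.62 and -0.10 under estradiol, at -1.81, -1.50, -1.33, -1.94 and -0.70 under DHT and at -1.42, -1.27, -1.13, -1.55 and -0.95 under placebo. For both, animals 43 and 44 were far above the others, animal 46 was intermediate, and animals 41 and 45 stood just above placebo. The differences were 1.86 ± 0.45 for Mmd2 (adjusted p = 0.0334) and 1.60 ± 0.37 for Dntt (adjusted p = 0.0232). Mmd2 missed the threshold without animal 43, 44, 46, 24, 25, 26 or 27 and Dntt without 43, 44, 24, 25 or 27. Of 14 measured lymphocyte markers Dntt alone passed (1.44% of all genes did), 12 of the 14 differences were negative and the median was -0.11. The summed log2 ratio of that list ran from -3.81 to 4.90 under estradiol and from -1.47 to 0.34 under placebo, and its part in the rise of Dntt was not tested.

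The same order appeared in Spon1, a secreted matrix protein, and Corin, a membrane protease that activates natriuretic peptides, both singled out after their values were seen. Spon1 lay at -1.28, 2.18, 2.63, -0.63 and 0.63 under estradiol and at -0.91, -1.15, -1.19, -1.25 and -1.30 under placebo. Corin lay at -1.45, 1.69, 2.43, -0.60 and 0.67 under estradiol and at -1.46, -1.38, -1.33, -1.44 and -1.09 under placebo. Animal 41 was within the placebo range for both, so the groups overlapped. Both passed in the fit to 40 arrays (Spon1 1.86 ± 0.49, adjusted p = 0.0468; Corin 1.89 ± 0.47, adjusted p = 0.0361). Spon1 missed without each animal except 41 and 45, and Corin without 43, 44, 46, 24, 25, 26 or 27. The fit uses 1 spread for all groups, whereas the SD of Spon1 was 1.70 under estradiol and 0.15 under placebo, and in the fit to the 10 arrays alone the adjusted p was 0.285 for Spon1 and 0.247 for Corin.

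Ovariectomized females on the same pellet also differed among themselves in these genes. Spon1 lay at -0.68, -0.90, 2.04, 1.73 and 1.98 in ovariectomized estradiol animals 33 to 37, against -1.22, -1.32, -1.29, -1.21 and -0.98 in ovariectomized placebo animals 16 to 20. Mmd2 lay at -0.70, -0.77, 2.10, 1.89 and 2.31 in the same animals on estradiol, against -0.97, -1.14, -1.14, -0.78 and -1.16 on placebo. Animals 35, 36 and 37 were high and animals 33 and 34 close to placebo in both genes. Plasma estradiol of single animals was not used here.

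**Figure D2:**
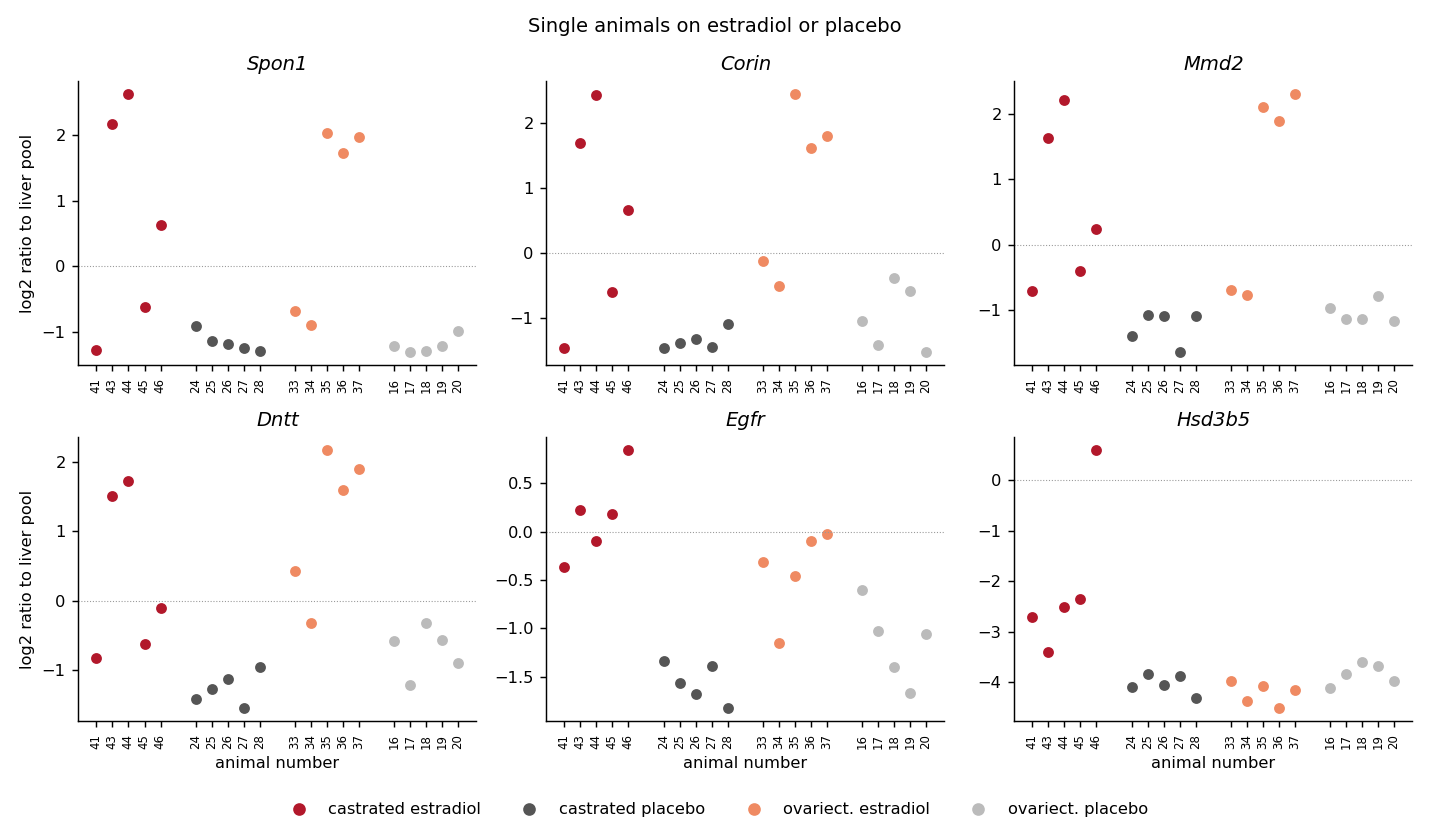
Log2 ratio to the liver pool (vertical axis) of 6 genes in single animals (horizontal axis, animal number), in castrated males and ovariectomized females with estradiol or placebo. Among castrated animals, Spon1, Corin, Mmd2 and Dntt are highest in animals 43 and 44, Egfr is above placebo in all 5 estradiol animals, and Hsd3b5 reaches 0.60 in animal 46 with the other estradiol animals at -2.36 or below.

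Animals were not ordered the same way in all genes. Of the 174 probes called higher, 89 lay farthest from the placebo mean in animal 46, and 57 lay nearest to it in animal 41. Of the 104 called lower, 31, 29 and 27 were farthest in animals 46, 45 and 43, and 56 were nearest in animal 41. The median shift along the called direction was 0.43, 0.44, 0.44, 0.48 and 0.66 for the higher probes and 0.34, 0.44, 0.38, 0.49 and 0.45 for the lower ones. The probes were called on these same animals, so a shift along the called direction follows from the choice and only the order among animals is described. Among the higher probes animal 41 had the smallest median shift and animal 46 the largest. Among the lower probes animal 41 had the smallest and animal 45 the largest.

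The remaining raised genes have varied functions. Dct, a melanin synthesis enzyme, lay at 0.34, -0.26, -0.26, 0.30 and -0.60 under estradiol and at -2.12, -1.73, -1.62, -1.74 and -0.67 under placebo, a difference of 1.48 ± 0.36 (adjusted p = 0.0351). Its groups were separated by a narrow gap, and the call held without animal 28 alone. Upp2, the liver uridine phosphorylase, lay at 0.41, 0.41, 0.53, 1.06 and 0.78 under estradiol and at -1.30, -0.88, -0.19, -0.72 and 0.34 under placebo, a difference of 1.19 ± 0.30 (adjusted p = 0.0373). A further Upp2 probe differed by 0.05 (adjusted p = 0.866), and the call was lost without animal 44, 45, 46, 24, 25 or 27. Serpina3f, a serpin of the acute phase cluster, differed by 1.15 ± 0.24 (adjusted p = 0.0105), with estradiol animals between -0.23 and 0.62 and placebo animals between -1.40 and -0.68. Hsd3b2, of the 3-beta-hydroxysteroid dehydrogenases that oxidise steroids, differed by 0.98 ± 0.24 (adjusted p = 0.0334), with estradiol animals between -0.39 and 0.82 and placebo animals between -1.22 and -0.41. Its groups almost touched, and it missed without animal 41, 45, 46, 24, 25 or 27.

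Pde6c, the catalytic subunit of the cone phosphodiesterase, showed the largest fall. It lay at -0.06, -1.12, -0.81, -0.85 and -0.82 under estradiol, at -1.14, -0.15, 0.71, -0.50 and 0.34 under DHT and at 1.36, 1.10, 0.57, 1.24 and 0.61 under placebo. All estradiol livers were below all placebo livers, with animal 41 apart from the other estradiol animals. The difference was -1.71 ± 0.31 (3.27-fold lower, adjusted p = 0.00388), and a further probe of the gene differed by -0.08 (adjusted p = 0.475).

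Gsta2 and Gsta4, alpha-class glutathione transferases that detoxify reactive compounds, both fell. Gsta2 lay at 0.02, -1.40, -0.56, -0.77 and -1.35 under estradiol and at 0.05, 0.72, 0.09, 0.69 and 0.98 under placebo, a difference of -1.32 ± 0.29 (adjusted p = 0.0159). Gsta4 lay at -0.11, -0.63, -0.39, -0.34 and -0.43 under estradiol and at 0.09, 0.42, 0.19, 0.46 and 0.41 under placebo, a difference of -0.69 ± 0.15 (adjusted p = 0.0175). Animal 41 was the closest to placebo in both, and both missed the threshold without animal 43 or 46. The probe sequences were not used here, so signal shared between members of a gene family, such as the Gsta, Hsd3b, Cyp2b and serpin genes, cannot be told apart.

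Gpd2, the mitochondrial enzyme of the glycerol phosphate shuttle, lay at -0.15, -0.76, -0.79, -1.03 and -0.51 under estradiol and at 0.17, 0.14, 0.18, 0.11 and 0.96 under placebo. The groups did not overlap, and placebo animal 28 was far above the other placebo animals. The difference was -0.96 ± 0.16 (1.95-fold lower, adjusted p = 0.00269) and passed without each animal, animal 28 included.

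H1f2, a linker histone, fell by 1.02 ± 0.22 (adjusted p = 0.0136), with -0.67, -1.17, -1.25, -0.69 and -0.21 under estradiol and 0.51, -0.14, -0.18, 0.40 and 0.50 under placebo. Sh2b3, an adaptor that restrains cytokine receptors, differed by -0.89 ± 0.20 (adjusted p = 0.021) and Crip2, a LIM domain protein, by -0.80 ± 0.16 (adjusted p = 0.00953). Epha2, a receptor for ephrins, differed by -0.68 ± 0.15 (adjusted p = 0.0167), Slc25a47, a mitochondrial carrier of the liver, by -0.62 ± 0.14 (adjusted p = 0.0228) and the zinc finger gene Zfp503 by -0.68 ± 0.15 (adjusted p = 0.0143). The RNA-binding protein gene Rbmx differed by -0.75 ± 0.14 (adjusted p = 0.00388) and Anp32e, a chaperone of a histone variant, by -0.58 ± 0.14 (adjusted p = 0.0307). These 8 genes moved by 1.49-fold to 2.02-fold, less than the leading raised genes. Further probes differed by 0.01 for Rbmx (adjusted p = 0.977) and by -0.05 for Crip2 (adjusted p = 0.888), so those calls rest on 1 probe each. H1f2 missed the threshold without animal 24, Epha2 without 27, Zfp503 without 24 or 25, Sh2b3 without 45, 46 or 24, Slc25a47 without 43, 46 or 24 and Anp32e without 41, 45, 46, 24, 27 or 28.

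**Figure D3:**
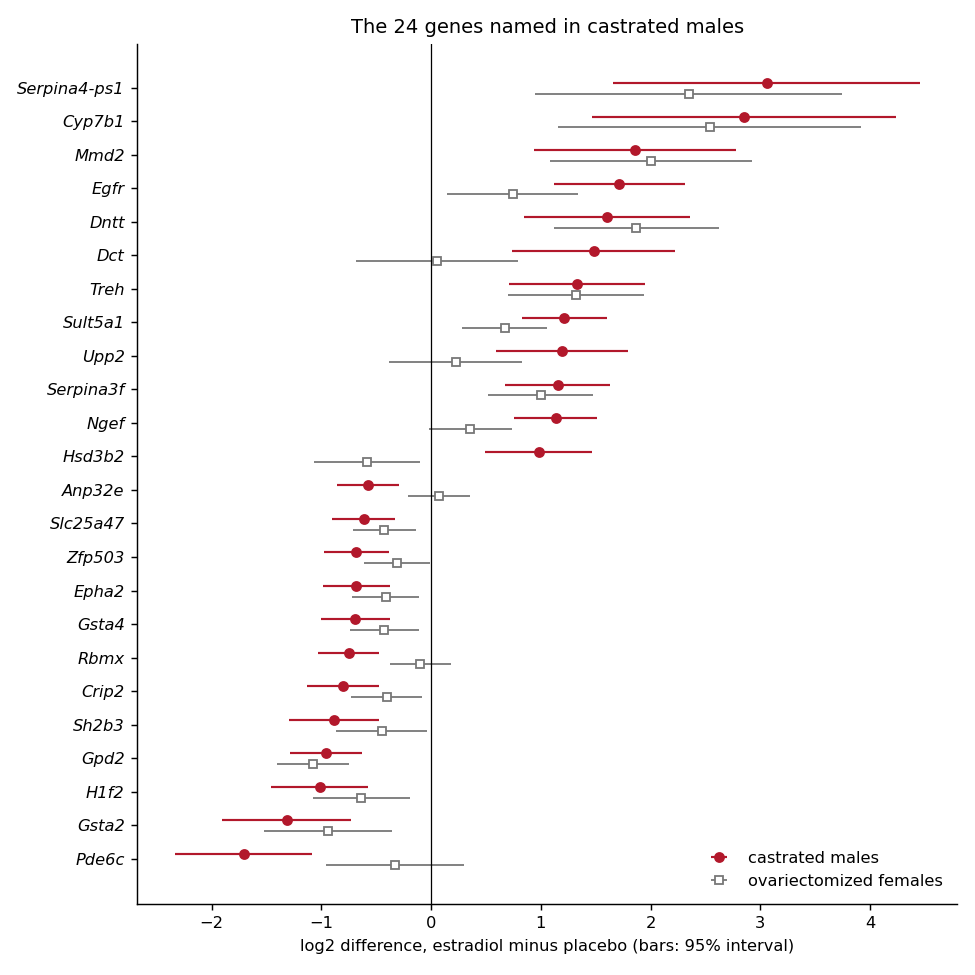
Log2 difference of estradiol minus placebo (horizontal axis; bars are 95% intervals) of the 24 named genes, filled circles for castrated males and open squares for ovariectomized females (n = 5 per group). The castrated values run from 3.06 for Serpina4-ps1 to -1.71 for Pde6c, and 22 of the 24 genes have the same sign in ovariectomized females.

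Among genes known for estrogen action, 1 of 18 rose (0.904% of all genes did) and 0 fell, with a median difference of -0.02 that equalled that of all genes. The riser was Egfr. The receptor gene Esr1 lay at -0.19, 0.21, -0.10, 0.01 and -0.19 under estradiol and at 0.05, -0.03, 0.45, -0.13 and -0.24 under placebo. Its groups overlapped throughout, and the difference of -0.07 had a 95% interval from -0.31 to 0.17 (adjusted p = 0.791). Greb1, a classical estrogen target in breast cells, lay at -0.53, 0.50, 1.16, 0.09 and 0.52 under estradiol and between -0.25 and -0.02 under placebo, a difference of 0.44 with a 95% interval from 0.09 to 0.79 (adjusted p = 0.242). Animals 43, 44, 45 and 46 were above the placebo range, and animal 41 was the lowest of all 10. Igfbp1, a binding protein for insulin-like growth factors, differed by -1.41 (95% interval -2.40 to -0.42, adjusted p = 0.167).

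Growth hormone signalling genes gave 0 calls among 15 (1.44% of all genes passed), with 12 positive differences and a median of 0.17. The receptor gene Ghr lay at 0.21, 0.09, 0.43, -0.18 and 0.48 under estradiol and at -1.02, -0.53, -0.87, -0.09 and 0.06 under placebo, and the difference of 0.70 had a 95% interval from 0.23 to 1.17 (adjusted p = 0.15).

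In the steroid metabolism list, Cyp7b1 and Hsd3b2 rose (0.904% of all genes did), 0 of 15 fell (0.535% of all genes did) and the median was 0.40. Ugt2b5, which couples steroids to glucuronic acid, lay at 0.03, -0.02, 0.30, -0.23 and 0.54 under estradiol and at -1.52, -1.11, -0.98, -0.56 and -0.21 under placebo (difference 1.00, 95% interval 0.46 to 1.55, adjusted p = 0.0531). Its further probes differed by 0.25 and 0.44. Hsd17b2, which inactivates estradiol by oxidation, differed by 0.65 (95% interval 0.25 to 1.06, adjusted p = 0.108) and was highest in animal 43. Cyp17a1, the hydroxylase and lyase of androgen synthesis, lay at -1.01, 1.52, 1.64, 0.21 and -0.06 under estradiol and at -0.12, -0.78, -0.66, -0.82 and -1.06 under placebo. The groups overlapped, and the difference of 1.15 had a 95% interval from 0.25 to 2.05 (adjusted p = 0.226).

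Hsd3b5, a steroid dehydrogenase expressed in male mouse liver, was uneven among the estradiol animals. It lay at -2.71, -3.39, -2.51, -2.36 and 0.60 under estradiol, at 2.40, 1.29, -3.19, 1.98 and 1.2 under DHT and at -4.10, -3.84, -4.06, -3.88 and -4.32 under placebo. All 5 estradiol livers were above the placebo livers, animal 43 by the smallest margin and animal 46 by far the largest. The difference was 1.96 (95% interval 0.48 to 3.45) and did not pass (adjusted p = 0.208), and a further probe of the gene differed by 0.03 (adjusted p = 0.837). Intact males lay between 1.34 and 2.26, above every estradiol animal.

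In the fatty acid and glyceride synthesis list, 2 of 20 fell (0.535% of all genes did), Gpd2 and the acetyl-CoA carboxylase gene Acaca, 0 rose and the median was -0.24. Gpd2 is the shuttle enzyme described above rather than an enzyme of synthesis, and it also counts in the glucose list. Acaca ranged from -0.49 to -0.0046 under estradiol and from 0.17 to 0.52 under placebo, a difference of -0.57 ± 0.14 (adjusted p = 0.0359) that 2 further probes gave as -0.19 and -0.13, neither past the threshold. It missed without animal 43, 45, 46, 24, 25, 26 or 28. In the fatty acid oxidation list, 0 of 25 passed, 22 of 25 differences were negative and the median was -0.21. Pdk4, a kinase that shuts off pyruvate oxidation in fasting, lay at -1.08, -1.51, -0.84, -1.54 and -1.69 under estradiol and at -0.05, -0.35, -0.61, -0.32 and -0.76 under placebo (difference -0.92, 95% interval -1.43 to -0.40, adjusted p = 0.064). G0s2, an inhibitor of triglyceride lipase, differed by -1.28 (95% interval -2.04 to -0.52, adjusted p = 0.0851), with animal 41 at -0.18 and the other estradiol animals between -2.33 and -1.29.

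In the glucose list of 21 genes, Pfkfb3, which makes the activator of glycolysis fructose 2,6-bisphosphate, rose and Gpd2 fell, with a median of -0.19. Over all genes 0.904% rose and 0.535% fell. Pfkfb3 lay at 0.29, 0.40, 0.20 and 1.12 in estradiol animals 41, 43, 45 and 46 and near the pool in animal 44, against -0.85, -0.67, -0.50, -0.55 and -0.13 under placebo, a difference of 0.94 ± 0.21 (adjusted p = 0.0175, not called without animal 46 or 24). Cholesterol synthesis genes gave 0 calls among 16, with 12 positive differences and a median of 0.12. Lipoprotein genes gave 0 among 17 (median -0.15), and their member of smallest p was Apoc2, a cofactor of lipoprotein lipase. Apoc2 lay at -0.49, 0.85, 0.98, -0.12 and 0.50 under estradiol and between -0.59 and -0.09 under placebo (adjusted p = 0.0947), again with animals 43, 44 and 46 above the rest.

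In the other metabolic lists single genes passed, and over all genes 0.904% rose and 0.535% fell. Of 25 genes of foreign compound metabolism, 2 fell, Gsta2 and Gsta4, and 0 rose, with a median of -0.16. Of 18 bile acid genes Cyp7b1 alone passed. Of 18 genes of heme and iron, Alas1, the rate-limiting enzyme of heme synthesis, rose by 1.00 ± 0.25 (adjusted p = 0.0415). It lay between -0.38 and 0.75 under estradiol and between -1.34 and -0.0038 under placebo, groups that overlapped, and missed without animal 41, 45, 46, 24, 25, 26 or 27. Of 10 vitamin genes Cyp2r1, a vitamin D 25-hydroxylase, rose by 0.73 ± 0.16 (adjusted p = 0.0133, not called without animal 24). Its estradiol values of 0.22, 0.18, 0.27, 0.52 and 0.29 did not overlap the placebo values of -0.86, -0.32, -0.73, -0.10 and -0.16.

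Of 16 glucocorticoid-responsive genes, Fkbp5, a co-chaperone of steroid receptors, rose (0.904% of all genes did) and 0 fell, with a median of -0.03. Fkbp5 lay at 0.15, 0.22, 0.11, 1.30 and 0.54 under estradiol and at -0.50, -0.42, -1.05, 0.09 and -0.20 under placebo, a narrow separation with a difference of 0.88 ± 0.23 (adjusted p = 0.0463). It missed without animal 43, 45, 46, 24, 25 or 26. Of 28 complement and coagulation genes Klkb1, plasma prekallikrein, rose by 0.67 ± 0.17 (adjusted p = 0.0422), with estradiol animals between -0.19 and 0.63 and placebo animals between -0.79 and -0.13, which overlapped. It missed without animal 41, 43, 44, 46, 24, 25 or 26. Of 21 acute phase genes Serpina3f alone passed.

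In the remaining pathway lists 0 genes passed, against 1.44% of all genes. These were 16 of the unfolded protein response (15 positive, median 0.22) and 22 of the cell cycle (median -0.01). The others were 20 of amino acid and one-carbon metabolism (median -0.14) and 14 of the clock. Calr, a chaperone of the first of these lists, differed by 0.51 (95% interval 0.19 to 0.83, adjusted p = 0.108), and a further probe of it did pass (0.57, adjusted p = 0.038). The clock gene Arntl lay at -1.0, -0.64, 0.17, -0.74 and -1.49 under estradiol and at 0.98, 0.45, -0.36, 0.38 and -0.87 under placebo (difference -0.86, 95% interval -1.39 to -0.32, adjusted p = 0.108). With the clock index as a covariate 271 probes passed, 170 of them among the 278, and Dct, Upp2, Hsd3b2, Slc25a47, Anp32e, Fkbp5, Pfkfb3, Klkb1 and Alas1 missed the threshold. Their differences in that fit were 1.28 for Dct, 0.78 for Upp2, 0.70 for Hsd3b2, -0.49 for Slc25a47, -0.51 for Anp32e, 0.92 for Fkbp5, 0.81 for Pfkfb3, 0.59 for Klkb1 and 0.81 for Alas1. Among these 9 genes that of Upp2 moved by the largest amount, and that of Fkbp5 was slightly larger than without the covariate. The other 26 of the 35 called genes in the text kept their call. Some of their differences were larger in that fit, such as 3.49 for Cyp7b1, 3.47 for Serpina4-ps1 and 2.43 for Spon1. Others were smaller, such as 0.93 for Ngef and -0.63 for Rbmx.

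Markers of other liver cells were measured alongside. Kupffer cell and macrophage markers gave 0 calls among 14 (1.44% of all genes passed), with 13 positive differences and a median of 0.29. Their summed log2 ratio ran from -6.71 to 11.4 under estradiol and from -6.86 to 0.28 under placebo. In ovariectomized females the median difference of the same list was 0.73, with 0 calls (0.885% of all genes passed there). Of 10 endothelial markers, Tek, a receptor for angiopoietins, fell by 0.24 ± 0.06 (adjusted p = 0.0305), with estradiol animals from -0.14 to -0.07 and placebo animals from 0.06 to 0.25. Its call was lost without animal 43, 44, 45, 46, 24, 25 or 27, and the list's summed ratio overlapped, from -0.76 to 0.67 under estradiol and from -0.61 to 1.85 under placebo. Of the 10 endothelial differences 8 were negative and the median was -0.10, against 0.02 in ovariectomized females. Over all genes 0.535% fell. Stellate cell, cholangiocyte, MHC class II, neutrophil and erythroid, and other-tissue markers gave 0 calls among 9, 8, 5, 12 and 6. The part of any of these lists in the results was not tested.

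Probes called under estradiol were compared with the sex difference of intact livers, in animals of which none was in the castrated groups. Between intact females and males 2048 probes differed (8.69%), of which 785 (3.33%) had the higher level in females and 1263 (5.36%) in males. Of the named genes of the array 9.55% differed, 4.03% toward females and 5.52% toward males. Of the 174 probes that estradiol raised in castrated males, 62 (35.6%) were higher in intact males and 2 (1.15%) higher in intact females. Of the 104 that estradiol lowered, 30 (28.8%) were higher in intact females and 1 (0.962%) in intact males. Among the named genes, 6 of the 12 raised ones were called higher in intact males and 0 higher in intact females, and 3 of the 12 lowered ones, Pde6c, Crip2 and Rbmx, were called higher in intact females. The comparison describes overlap only, and the 2 fits share the estimate of the spread.

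The whole sex pattern was followed with 2 sets of probes that differed by at least 1.5-fold between intact females and males, 161 with the higher level in females and 299 with the higher level in males. The mean log2 ratio of the male set was -0.17, -0.16, -0.15, -0.23 and 0.14 under estradiol, 0.40, 0.18, -0.34, 0.38 and 0.14 under DHT and -0.58, -0.47, -0.53, -0.40 and -0.39 under placebo. Each estradiol animal lay above each placebo animal, and the estradiol mean of -0.11 was still below the 0.67 of intact males. The female set averaged -0.23, -0.21, -0.19, -0.16 and -0.26 under estradiol, -0.96, -0.82, -0.21, -0.91 and -0.41 under DHT and 0.01, -0.04, -0.07, 0.06 and 0.07 under placebo. It was lower in every estradiol animal than in every placebo animal, and far above the -1.05 of intact males. In ovariectomized females the male set averaged -0.45 with estradiol and -0.47 with placebo, and the female set 0.14 with estradiol and 0.27 with placebo. No p is given for these means, and DHT animal 61 lay apart from the other DHT animals in the male set.

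**Figure D4:**
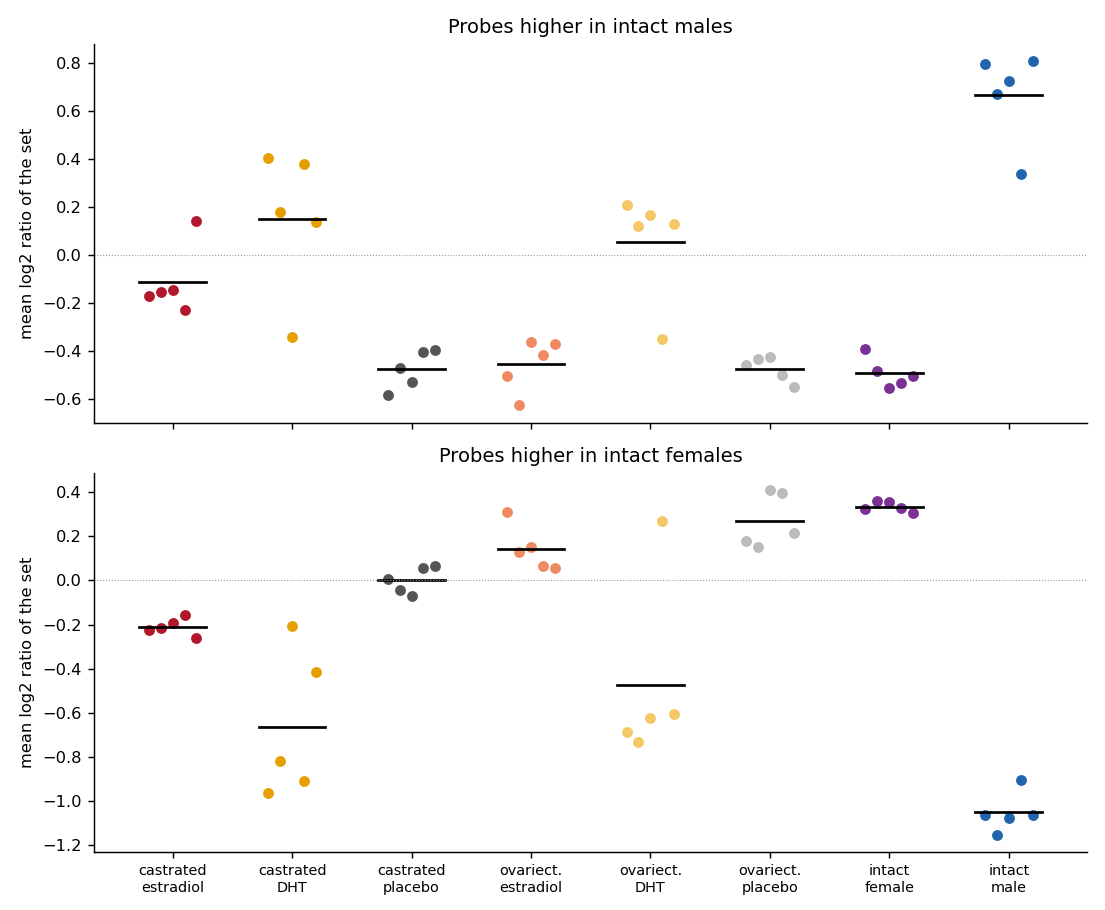
Mean log2 ratio to the liver pool (vertical axis) of 299 probes higher in intact males (top) and 161 probes higher in intact females (bottom), 1 point per animal with the group mean as a bar, in all 8 groups. Castrated males with estradiol lie above those with placebo in the male set (-0.11 against -0.47) and below them in the female set (-0.21 against 0.0035).

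Genes that are textbook examples of sex-dependent expression were taken as lists. Of 25 known female-biased genes 0 passed, with 13 positive and 12 negative differences. Of all genes 1.44% passed, and at that share a list of this length would often hold 0. Of 20 known male-biased genes Serpina4-ps1 and Cyp7b1 rose (0.904% of all genes did), 0 fell, 16 differences were positive and the median was 0.24. Cyp2b9, a female-specific cytochrome P450, lay at 0.66, -0.07, -0.25, 0.74 and 0.24 under estradiol, at -4.72, -2.94, 0.29, -4.34 and -1.43 under DHT and at 0.55, 0.63, 0.95, 0.38 and 0.38 under placebo. Estradiol animals overlapped placebo animals, with a difference of -0.32 (95% interval -1.56 to 0.92, adjusted p = 0.822), and 4 of the 5 DHT animals lay far below both. Cyp2b13, its close relative, differed by -0.56 (95% interval -2.02 to 0.90, adjusted p = 0.725). Sult3a1, a female-biased sulfotransferase, lay at -0.0060, 0.91, 0.68, 0.96 and 0.69 under estradiol and at -0.70, -1.30, -1.99, -0.07 and -1.03 under placebo. The groups did not overlap, and the difference of 1.67 (95% interval 0.37 to 2.96) did not pass (adjusted p = 0.221). Hao2, a female-biased hydroxyacid oxidase, lay at -2.53, -2.41, -1.26, -0.70 and -1.53 under estradiol and at -0.40, 0.36, -0.09, 0.14 and 1.15 under placebo, a difference of -1.92 (95% interval -3.16 to -0.68, adjusted p = 0.126).

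A direct contrast of estradiol with DHT in castrated males called 167 probes (0.708%), 91 higher (0.386%) and 76 lower (0.322%). It uses the same estradiol animals as the contrast with placebo and the spread of all 40 arrays, and a fit to its own 10 arrays called 8 probes. The count was 197, 102, 56, 239 and 110 without estradiol animals 41, 43, 44, 45 and 46. It was 48, 64, 215, 81 and 493 without DHT animals 59 to 63. Of the 24 genes named above, Mmd2 (2.42 ± 0.45, adjusted p = 0.00485) and Dntt (1.79 ± 0.37, adjusted p = 0.0122) were higher with estradiol than with DHT, and the other 22 did not pass. Over all genes 0.978% passed in either direction. The 24 were chosen on these same estradiol animals, so their share is no independent support. Mmd2 passed without each of the 10 animals, and Dntt missed without animal 43, 44 or 59. For Egfr the difference was -0.29 with a 95% interval from -0.88 to 0.31, for Ngef 0.08 with an interval from -0.30 to 0.45, and for Serpina3f 0.05 with an interval from -0.43 to 0.53. DHT animal 61 lay at -0.69 for Egfr, with the other DHT animals from 0.53 to 0.90. It lay at -0.65 for Serpina3f, with the others from 0.008 to 0.52, and at 0.38 for Ngef, among the others. These intervals do not show that the levels were equal.

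The genes farthest above DHT were Sult3a1 (4.17 ± 0.64, adjusted p = 0.000675), Cyp17a1 (3.31 ± 0.44, adjusted p = 0.0001), Cyp2b13 (3.3), the plasma glycoprotein gene A1bg (3.16), the organic anion transporter gene Slc22a26 (3.07) and Cyp2b9 (2.89). Those farthest below DHT were the fatty acid elongase gene Elovl3 (-2.27), Nat8, an acetyltransferase gene (-1.98), Cyp4a12a, a fatty acid hydroxylase gene (-1.84), G0s2 (-1.53), Fitm1, which acts in lipid droplet formation (-1.29), and Fbf1 (-1.18). Sult3a1, Cyp17a1, Slc22a26, Elovl3, Nat8, Cyp4a12a and Fbf1 passed without each of the 10 animals in turn. Cyp2b13 and Cyp2b9 missed without DHT animal 59, 60 or 62, A1bg without 43, 44, 45, 46, 59, 60 or 62, G0s2 without 43, 44, 46, 59, 60 or 61 and Fitm1 without 43, 44, 59, 60 or 62. Further probes differed by 0.52 for Sult3a1 (adjusted p = 0.312), by 0.53 for Cyp2b13 (adjusted p = 0.145) and by 0.20 for Cyp2b9 (adjusted p = 0.131), so these calls rest on 1 probe each. DHT animal 61 lay within the estradiol range for Elovl3 (-2.24), Nat8 (-0.72), Cyp4a12a (-1.50) and Fitm1 (-0.13). The same animal lay within it for Cyp2b13 (0.23), Cyp2b9 (0.29) and A1bg (-1.11). For G0s2, DHT animals 62 (-1.04) and 63 (-0.19) did. Estradiol and DHT animals did not overlap for Sult3a1, Cyp17a1, Slc22a26 and Fbf1, the last 3 by a narrow gap. None of these 12 genes passed for estradiol against placebo.

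Ovariectomized females received the same estradiol pellet, and the difference between the sexes in the response to it was tested directly. No probe passed in limma (0 of 23574, 0%), while 973 had an unadjusted p under 0.05. The count was 1 without estradiol animal 44, 2 without castrated placebo animal 28 and 2 without ovariectomized placebo animal 20. Among the named genes the smallest adjusted p was that of Hsd3b2, which differed by 0.98 in castrated males and by -0.58 in ovariectomized females (limma, adjusted p = 0.324). Ngef differed by 1.14 in castrated males and by 0.36 in ovariectomized females (limma, adjusted p = 0.961), and Dct by 1.48 and 0.05 in the same order (limma, adjusted p = 0.993).

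In ovariectomized females 149 probes passed for estradiol against placebo (0.632%), 72 higher (0.305%) and 77 lower (0.327%). Of the 149, 35 also passed in castrated males in the same direction and 0 in the opposite one, which is 12.6% of the 278 probes called in castrated males and 23.5% of the 149. The sign was shared by 250 of the 278 probes (89.9%), against 64.2% of all probes. Across the 278 probes the 2 differences correlated with r = 0.84 and across all probes with r = 0.53. These describe probes that share arrays and are not independent, and choosing probes by size raises the r. Along the called direction the median of the 278 was 0.47 in castrated males and 0.21 in ovariectomized females. For the 149 it was 0.66 in ovariectomized females and 0.35 in castrated males. Each set was chosen on 1 of the 2 responses, and 0 calls for their difference do not show equal responses. Of the 24 named genes Mmd2, Dntt, Treh, Serpina3f and Gpd2 passed in ovariectomized females too. Gpd2 differed by -1.08 there and by -0.96 in castrated males.

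Serpina7, the thyroxine-binding globulin, and Ptgds, a prostaglandin D synthase and lipid carrier, were picked after their values were seen because they passed in both sexes. Serpina7 lay at 0.22, -0.28, -0.60, -0.75 and 0.22 under estradiol and at 0.21, 0.32, 0.40, 1.25 and 1.41 under placebo in castrated males, an overlap by animals 41 and 46, with a difference of -0.96 ± 0.25 (adjusted p = 0.045). Ptgds lay at -0.54, 1.10, 0.95, 0.94 and 0.72 under estradiol and at -0.21, -0.72, -0.52, -0.32 and -0.80 under placebo, with animal 41 alone in the placebo range and a difference of 1.15 ± 0.26 (adjusted p = 0.0213). Serpina7 missed without each animal except 41 and 25, and Ptgds missed without animal 43, 44, 45, 46 or 25. In ovariectomized females the differences were -1.13 for Serpina7 (adjusted p = 0.0225) and 1.26 for Ptgds (adjusted p = 0.0165).

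**Figure D5:**
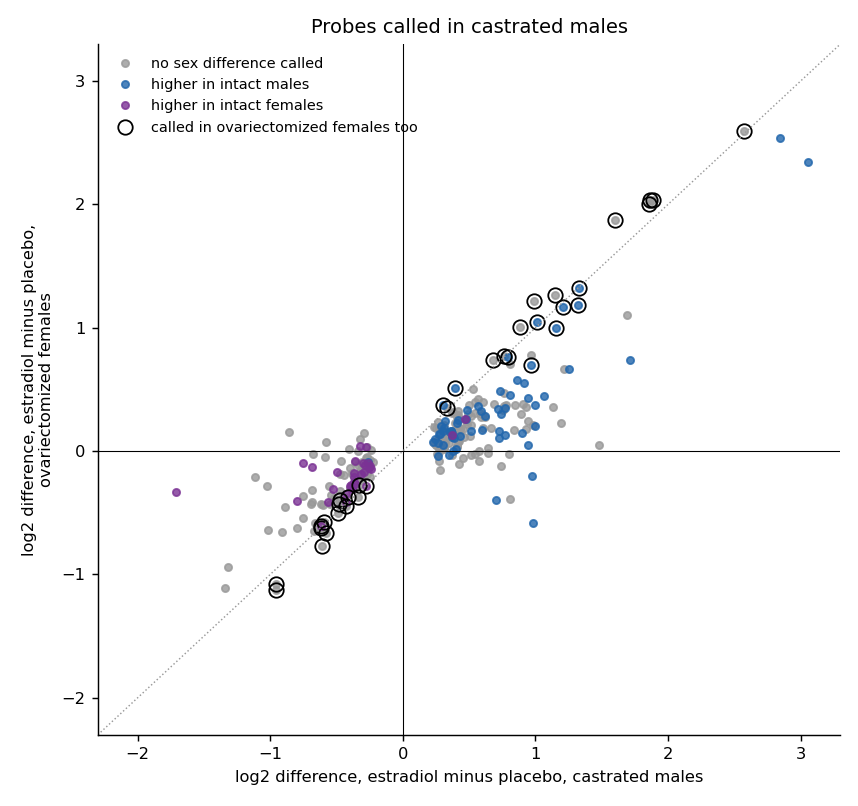
Log2 difference of estradiol minus placebo in ovariectomized females (vertical axis) against that in castrated males (horizontal axis) for the 278 probes called in castrated males, coloured by the sex difference of intact livers; open rings mark the 35 probes called in both and the dotted line marks equal values. Of the points, 250 lie in the quadrants of shared sign, and probes higher in intact males (blue) gather among those raised by estradiol.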

How the data were processed

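RNA of 40 mouse livers was measured on 2-colour arrays, 1 array per animal, with liver RNA in Cy5 and a pool of 40 livers in Cy3, per the labels. The deposited table holds log10 ratios of liver to pool for 23574 probes, with 0 missing values; the unit was settled from the values, which stop at 2 and -2 (29 values on 16 probes), and the direction from the dyes and the Y-linked genes. Background subtraction, normalization and centring by the authors are not given in the sources used here, and they could compress or shift small ratios. No batch, slide or date was used, no dye was swapped, and the pool is no sample of a group. Whether the animals of a group were housed or processed apart is not stated. The p-values measure the spread between animals within a group, pooled over the 8 groups.

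The log10 values were converted to log2, and limma 3.58.1 (R 4.3.3) estimated 8 group means from the 40 arrays (lmFit, eBayes, 32 residual and 3.42 prior degrees of freedom), with two-sided tests and Benjamini-Hochberg adjustment over all probes of a contrast. The fit was tested on simulated data. Gene symbols were read from GEO's platform annotation and used only if RefSeq's mouse table lists them: 13665 probes had 1 symbol, 48 several and 9861 none, which left 12662 named probes of 10842 genes. A gene with several probes (1157 genes) was represented by the one that varied most across arrays. Named genes are the 12 largest rises and falls that passed without overlap, the 6 largest in each direction for the contrast with DHT and for the difference between the sexes, up to 4 members of each of 32 lists with the smallest adjusted p, and a few known hormone-dependent genes; clone names were left out, and genes outside the rule are marked as chosen after their values were seen. The comparison, the lists and the genes were chosen with earlier results of these data known, so no list is independent support. Alternatives were the arrays in the fit, quantile normalization, centring, scaling, array weights, a robust prior, a clock covariate, the probes tested, values at the limit, other probes of a gene and each animal left out.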

Additional observations from a re-analysis of the deposited data

Results flagged for a closer look

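In 172 groups of 5 animals (86 genes under estradiol and under placebo), 10 held 1 animal far from the rest by Dixon's test; chance gives about 1 in 20. Under estradiol, animal 41 was the nearest to placebo in 3 of these. It lay at -0.055 for Pde6c with the others from -1.12 to -0.81, at -0.0060 for Sult3a1 with the others from 0.68 to 0.96, and at -0.54 for Ptgds with the others from 0.72 to 1.10. Animal 46 stood at 0.60 for Hsd3b5, with the others from -3.39 to -2.36. Animal 44 stood at -0.055 for Clpx, a mitochondrial protease subunit, with the others from -0.91 to -0.68. Animal 45 stood at -0.25 for Calr, a chaperone of the endoplasmic reticulum, with the others from 0.25 to 0.44.

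Under placebo, animal 28 stood at 0.96 for Gpd2 with the others from 0.11 to 0.18, and animal 26 at 0.34 for G0s2 with the others from -0.43 to -0.24. Animal 27 stood at 0.24 for Masp1, a protease of the lectin pathway of complement, with the others from -0.18 to -0.098. Animal 25 stood at 0.30 for the cyclin gene Ccnd1, with the others from -0.19 to -0.085.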

How the results depend on the processing

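For estradiol against placebo, 278 probes passed, and the count became 753 with array weights, 112 with each array scaled to one median absolute deviation, 170 with the mean of a gene's probes, 183 over named probes only and 37 with the 10 arrays alone. Leaving out each animal gave 69 to 322. The difference between the sexes in response gave 0, then 3 with array weights, 1 with probe means, 1 over named probes and 0 to 2 without each animal. Estradiol against DHT gave 167, then 1877 with weights, 104 scaled, 8 with its own arrays alone and 48 to 493 without each animal. Intact females against males gave 2048, then 5443 with weights, 1327 scaled, 1065 with probe means, 1180 over named probes, 1249 with their own arrays alone and 1455 to 2604 without each animal. Probe means and named probes test fewer features, and single-contrast fits use fewer arrays; the cause of the other shifts was not tested. Of 35 genes in the text that passed, 34 passed with array weights, 33 after quantile normalization, 31 with centred arrays, 26 with the clock index, 16 with scaled arrays and 9 with the 10 arrays alone. A further Rbmx probe reversed the sign at 0.013 (limma, adjusted p = 0.977). Centring, quantile normalization, the robust prior and values at the limit left the 3 larger counts within 1.5 times. No paired analysis was possible because no groups share animal numbers.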
